A study of Mus musculus with 6 samples.

Results

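The 10 genes described here are the metallothioneins Mt1, Mt2 and Mt3, the metal-sensing transcription factor Mtf1, and 6 zinc or copper transporters, Slc30a1, Slc30a5, Slc39a6, Slc39a10, Slc31a1 and Atp7a. They were picked by name for their roles in metal handling, by a rule that uses no measured value but was written with earlier results of these data known, and they are 10 of the 21878 gene symbols in the deposited table. RNA was measured in HT22 cells, an immortalized mouse hippocampal line, in 3 control libraries and in 3 libraries from cells given 120 µM aluminum maltolate (the Al group), a soluble complex of aluminum with the ligand maltol. The methods give 120 µM for the sequenced cells and 24 h for the treatments in general. The series text gives a range of doses without saying which was sequenced. The samples are titled C and M, and the M samples were read as the Al group because the series text names these 2 groups and no other. The methods list a control in medium only and a maltol control, and which of them was sequenced is not stated in the sources used here. All samples came from 1 cell line, with the same culture and no transgene named for these libraries, and the libraries were the inputs of an m6A immunoprecipitation, that is, fragmented RNA before enrichment. The question for these genes was how the machinery that binds and moves zinc and copper differed between control and Al-treated cells.

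Metallothioneins are small cysteine-rich proteins that bind zinc and copper in the cytosol. When zinc rises, MTF1 binds metal response elements in the promoters of the metallothionein genes and of Slc30a1 and raises their transcription, whereas it is known to hold Slc39a10 down. SLC30 proteins (ZnT) carry zinc out of the cytosol, SLC39 proteins (ZIP) carry it in, SLC31A1 (CTR1) takes up copper, and ATP7A pumps copper into the secretory pathway and out of the cell. In brain, Mt1 and Mt2 are best known from astrocytes and Mt3 from neurons.

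The metallothionein genes are the best known targets of MTF1, so their promoters are shown with that of Slc30a1, another target, and with 1 of the windows of Slc39a10, the member that rose most. Each sequence is the RefSeq promoter window of GRCm38.p6, from 250 bases before to 50 bases after an annotated start, read 5′ to 3′ on the gene's strand. Capitals mark the core of the metal response element, TGCACNC or TGCGCNC, on either strand. The Mt1 window is chr8:94178839-94179138 on the plus strand, that of Mt2 is chr8:94172368-94172667 on the plus strand, that of Slc30a1 is chr1:191906531-191906830 on the plus strand, and that of Slc39a10 is chr1:46853569-46853868 on the minus strand.
Mt1: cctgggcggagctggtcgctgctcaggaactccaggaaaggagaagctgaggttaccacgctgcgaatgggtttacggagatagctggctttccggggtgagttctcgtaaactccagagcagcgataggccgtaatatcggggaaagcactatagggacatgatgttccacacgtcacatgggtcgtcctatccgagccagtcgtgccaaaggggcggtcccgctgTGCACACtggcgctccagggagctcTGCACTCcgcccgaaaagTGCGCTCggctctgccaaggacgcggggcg
Mt2: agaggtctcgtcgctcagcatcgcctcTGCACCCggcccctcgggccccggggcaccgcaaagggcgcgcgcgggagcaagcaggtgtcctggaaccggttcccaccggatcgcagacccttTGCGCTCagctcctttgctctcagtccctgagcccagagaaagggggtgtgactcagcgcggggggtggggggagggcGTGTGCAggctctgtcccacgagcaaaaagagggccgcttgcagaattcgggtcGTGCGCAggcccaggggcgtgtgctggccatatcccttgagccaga
Slc30a1: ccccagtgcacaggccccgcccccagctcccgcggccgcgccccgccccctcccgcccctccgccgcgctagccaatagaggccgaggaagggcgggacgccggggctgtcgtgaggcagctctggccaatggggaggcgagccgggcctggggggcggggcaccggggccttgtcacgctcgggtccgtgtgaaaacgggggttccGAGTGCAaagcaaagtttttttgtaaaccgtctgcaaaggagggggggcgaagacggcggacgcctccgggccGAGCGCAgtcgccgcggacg
Slc39a10: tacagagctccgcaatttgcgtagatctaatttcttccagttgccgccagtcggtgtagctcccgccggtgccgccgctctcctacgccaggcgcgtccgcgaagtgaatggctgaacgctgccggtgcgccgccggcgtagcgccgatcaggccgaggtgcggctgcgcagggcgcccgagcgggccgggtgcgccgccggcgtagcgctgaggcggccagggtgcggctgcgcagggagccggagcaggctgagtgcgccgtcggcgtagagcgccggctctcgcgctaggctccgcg

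The Mt1 window held 3 core matches, with first bases at −23, +3 and +21 from the annotated start. The Mt2 window held 4, with first bases at −223, −128, −50 and +5, and the Slc30a1 window held 2, at −43 and +31. Of the 32851 RefSeq promoter windows of the same length, 25.7% held at least 1 match, 7.11% at least 2, 1.97% at least 3 and 0.517% at least 4. Atp7a had 2 matches, Slc30a5 and Mt3 had 1 each, and Mtf1, Slc31a1 and both Slc39a10 windows had 0. The Slc39a10 windows, chr1:46925727-46926026 and chr1:46853569-46853868, do not cover the 5′ end of the gene in GENCODE M21, 46892852. Matches near that end were not looked for. No matches overlapped each other. Windows were found for 9 of the 10 genes, all but Slc39a6. A match describes letters only and was not taken as a bound site.

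The window of Mt1 ends before 2 other annotated starts of this gene. In the GENCODE M21 annotation of GRCm38, Mt1 transcripts start at 94179082, 94179211 and 94179241 on chromosome 8. The first exon of the transcript with the first of these starts held 2 more core matches past the end of the window, with first bases 68 and 54 bases before the last of these starts, and a TATAAA 31 bases before it. The first exon of the Mt2 transcript that starts at 94172664 held 3 more core matches past its window and also a TATAAA. A stretch of 30 bases is shown for each gene because it carries a pair of these matches, chr8:94179169-94179198 for Mt1 and chr8:94172674-94172703 for Mt2, both on the plus strand of GRCm38.
Mt1 exon 1: tgctGGGTGCAaacccttTGCGCCCggact
Mt2 exon 1: gcGTGTGCAggcggcgggggcGCGTGCAtg

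The table gives 1 FPKM value (fragments scaled to the length of the transcript and to the mapped fragments of the library) per gene and library. The read totals behind the values were 38059492 to 44556768 in the controls, against 21125631 to 26670978 with Al, so that depth and treatment cannot be told apart. Each library was divided by a size factor, 0.802 to 1.21, taken from the median ratio of genes between libraries. Without it the median gene, over all those tested, moved on the log2 fold change scale by −0.46 (FPKM as deposited) or, with every library brought to the same sum (TPM), by −0.75, and the members are given under these scalings where a call or direction differs. Of 8 neuronal markers, Tubb3 and Eno2 had a mean FPKM of at least 1, Syp had 0.255, and the other 5 were under 0.1, among them Snap25 at 0 in all 6 libraries, so most defining genes of mature neurons were at or near 0 in these cells. In bulk RNA, fewer cells of a type and less RNA per cell cannot be told apart.

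Of the 10 members, 9 passed the filter of a mean FPKM of at least 0.1. Calls needed an unadjusted P below 0.05 in limma together with a log2 fold change beyond 0.58 in either direction. Slc39a10 and Mtf1 were higher in the Al group, Mt1, Mt2 and Slc31a1 were lower, and Slc30a1, Slc30a5, Slc39a6 and Atp7a were not called. The 5 calls of 9 stand beside 50.6% of all 12889 tested genes, the 2 higher beside 26.2% and the 3 lower beside 24.4%, so the share called was near that of all genes. The groups did not overlap for 5 of the 9 members after scaling, where 68.1% of all tested genes did not overlap. The median log2 fold change of the 9 members was −0.31, and over all 12889 genes it was 0.03. The split of the 9 members moved with the scaling, and so did that of all tested genes. With FPKM as deposited 1 member was higher and 6 were lower, beside 14.0% and 42.0% of all genes. With TPM 0 were higher and 7 lower, beside 9.31% and 53.1%, and after quantile normalization 2 were higher and 3 lower, beside 22.2% and 24.2%.

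**Figure D1:**
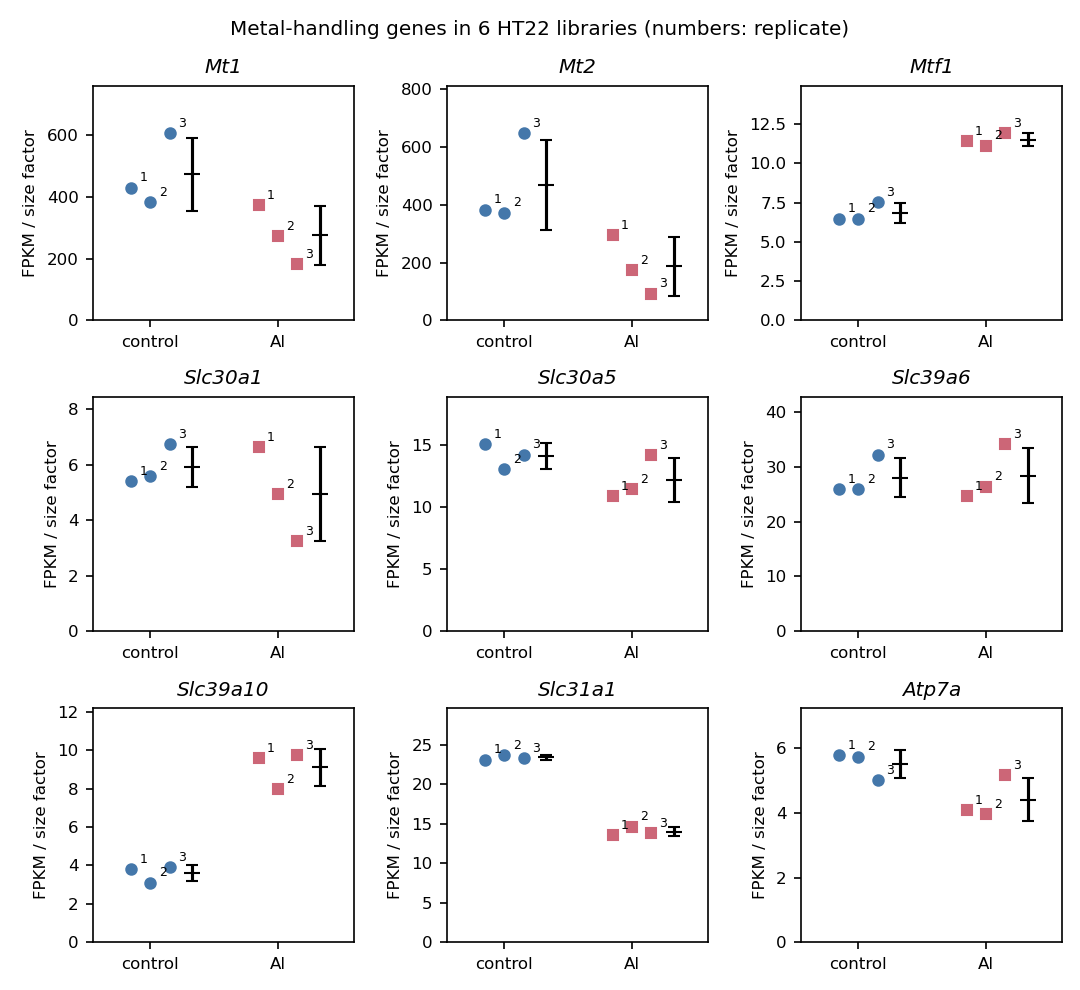
Scaled level (FPKM divided by the size factor, each axis from 0) of the 9 tested members in the control libraries (blue circles) and the Al libraries (red squares), numbered by replicate, with the mean ± SD (n = 3) in black. Mt1, Mt2 and Slc31a1 lie lower and Mtf1 and Slc39a10 higher in all 3 Al libraries, and the other 4 members overlap.

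Among the metallothioneins, Mt1 had 508, 463 and 711 FPKM in control replicates 1, 2 and 3 and 299, 222 and 168 FPKM in Al replicates 1, 2 and 3. Every Al library was below every control library. After scaling the levels were 473 ± 118 and 275 ± 95.9 (SD, n = 3 per group), which gave a log2 fold change of −0.81 (SE 0.28, limma with Benjamini-Hochberg adjusted P = 0.0315). The groups stayed apart after scaling, but narrowly, since Al replicate 1 had a scaled level of 373 and control replicate 2 one of 383. The call depended on single libraries. Without Al replicate 3 the log2 fold change of Mt1 was −0.53, below the fold threshold, and without control replicate 3 it was −0.63 at an unadjusted P of 0.0685 from limma.

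Mt2 had 453, 450 and 761 FPKM in the controls, against 236, 141 and 86.5 FPKM with Al, again with no overlap. Its log2 fold change was −1.43 (SE 0.39, limma adjusted P = 0.0119), or 2.69-fold lower in the Al group. The call held with each library left out, with log2 fold changes between −1.83 and −0.99. Behind the Mt2 values stood 9594, 10868 and 18849 reads in the controls, against 3505, 1716 and 1016 with Al, so counting error was small beside the spread between replicates. Of all 12889 tested genes, 6.63% had a lower log2 fold change than Mt2 and 19.2% a lower one than Mt1.

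In the control group both metallothioneins were among the most abundant transcripts. Mt1 ranked 89, 101 and 69 and Mt2 ranked 102, 108 and 64 by FPKM among the 21878 genes, and in the Al group the ranks were 224, 287 and 318 for Mt1 and 280, 453 and 674 for Mt2. Together they made up 0.297% ± 0.0745 of all FPKM in control cells, against 0.0826% ± 0.0266 after Al (SD, n = 3 per group). The fall of Mt1 and Mt2 kept its direction under every scaling, and was larger with FPKM as deposited (−1.30 and −1.92), TPM (−1.60 and −2.21) and quantile normalization (−1.76 and −2.34). The values of this pair carry a further limit, since Mt1 and Mt2 are similar in sequence and the counting could have split reads between them.

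The replicates of Mt1 and Mt2 varied together. Control replicate 3 was the highest control library and Al replicate 3 the lowest Al library for Mt1, for Mt2 and for Slc30a1. The same Al library had the highest scaled Al level of Mtf1, Slc30a5, Slc39a6, Slc39a10 and Atp7a, so it did not stand low for the members in general. The genes nearest to Mt1 in their pattern over the 6 libraries, by Euclidean distance of centred log2 scaled levels, were Maoa (distance 0.30), Hist1h4f (0.39) and Slc4a4 (0.45) of 10348 genes compared. Mt2 ranked 564 at a distance of 0.89 and had a wider range than Mt1. Hist1h4f belongs to a family of near-identical histone genes, and its values are uncertain.

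The 4 astrocyte markers did not move one way. The summed FPKM of the list was 14.0 to 22.9 in the controls, against 1.85 to 3.10 with Al. Most of it was Slc1a3, a glutamate transporter, the 1 marker of the 4 with a mean FPKM of at least 1, and Slc1a3 was called lower with Al (log2 fold change −2.96, limma adjusted P = 2.36e-05). Aldoc, a glycolytic enzyme, was called higher (log2 fold change 1.44, limma adjusted P = 0.00315), with 0.128, 0.305 and 0.203 FPKM in the controls, against 0.561, 0.462 and 0.610 FPKM with Al. Gfap was at or under 0.101 FPKM in every library and was not tested, with all Al libraries above the controls, and Aqp4 was at 0 throughout. The part of these genes in the metallothionein result was not tested.

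Mt3, the form best known from neurons, was listed at 0.257 FPKM in control replicate 2 and at 0 in the other 5 libraries. It did not pass the filter, and no difference was detectable at this depth, where a count of 0 still allows up to 3 expected reads (counting error only). The metallothionein genes lie side by side on chromosome 8, with Mt4, Mt3, Mt2 and Mt1 within 43131 bases, and Mt1 (94179082–94180327) begins 5513 bases after the end of Mt2 (94172664–94173568) on the plus strand. Within this cluster Mt4 was listed at 0 in all libraries, so that Mt1 and Mt2 carried nearly all of the metallothionein RNA as counted. A listed 0 cannot be told apart here from a gene that the counting missed.

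Mtf1, on chromosome 4 (124802104–124849800, plus strand), encodes the factor that senses zinc and drives the metallothionein genes. It had 7.67, 7.82 and 8.87 FPKM in the controls, against 9.14, 9.06 and 11.1 FPKM with Al. All 3 Al libraries were above all control libraries. After scaling the levels were 6.83 ± 0.622 and 11.5 ± 0.411 (SD, n = 3 per group). The log2 fold change of Mtf1 was 0.74 (SE 0.11, limma adjusted P = 0.000484), but 0.26 and not called with FPKM as deposited, −0.03 with TPM, and 0.85 after quantile normalization. The direction for Mtf1 therefore rests on the scaling between libraries.

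Of the zinc exporters, Slc30a1 (ZnT1), which moves zinc across the plasma membrane, lies on chromosome 1 (191906767–191913247, plus strand). It had 6.43, 6.77 and 7.93 FPKM in the controls, against 5.33, 4.02 and 3.04 FPKM with Al. These values did not overlap as deposited, but did after scaling, where the Al libraries spread from 3.26 to 6.64. The log2 fold change of −0.31 was not called (95% CI −0.84 to 0.23, limma adjusted P = 0.285), whereas FPKM as deposited gave −0.79 and TPM gave −1.08, both called, and quantile normalization gave −0.07. The value rested on single libraries, at −0.03 without Al replicate 3 and −0.54 without Al replicate 1 (limma unadjusted P = 0.0279, short of the fold threshold), neither called.

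Slc30a5 (ZnT5), which loads zinc into the early secretory pathway, lies on chromosome 13 (100802648–100833427, minus strand). It had 17.9, 15.8 and 16.7 FPKM in the controls, against 8.77, 9.36 and 13.3 FPKM with Al. After scaling, Al replicate 3 lay within the control range and the other Al libraries below it. The log2 fold change was −0.22 (95% CI −0.50 to 0.07, limma adjusted P = 0.162) and was not called, but reached −0.70 with FPKM as deposited and −0.998 with TPM, where it was called.

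The pair of zinc importers differed from each other. Slc39a10 (ZIP10), a plasma membrane importer on chromosome 1 (46807544–46892852, minus strand), had 4.53, 3.76 and 4.58 FPKM in the controls, against 7.68, 6.51 and 9.09 FPKM with Al. The lowest Al library was above the highest control library. Its log2 fold change of 1.31 (SE 0.14, limma adjusted P = 9.45e-05), or 2.48-fold higher in the Al group, was the largest increase among the members, and stayed between 1.196 and 1.41 with any 1 library left out. With TPM it was 0.54 and below the fold threshold.

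Slc39a6 (ZIP6), which is known to pair with ZIP10 in a complex, lies on chromosome 18. It had 30.7, 31.4 and 37.8 FPKM in the controls, against 19.8, 21.4 and 31.8 FPKM with Al. The groups overlapped, and after scaling the levels were 28.0 ± 3.60 and 28.4 ± 5.07 (SD, n = 3 per group). The log2 fold change was 0.01 (95% CI −0.32 to 0.34, limma adjusted P = 0.950), and it was −0.48 with FPKM as deposited, −0.77 and called with TPM, and −0.18 after quantile normalization.

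Slc31a1, the high-affinity copper importer, on chromosome 4 (62360727–62391769, plus strand), had the steadiest values. It had 27.4, 28.7 and 27.4 FPKM in the controls, against 10.9, 11.9 and 12.9 FPKM with Al. The groups lay far apart beside their spread. After scaling the levels were 23.4 ± 0.297 and 14.0 ± 0.557 (SD, n = 3 per group), which gave a log2 fold change of −0.74 (SE 0.088, limma adjusted P = 0.000153). It was called lower under each scaling and with each library left out.

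Atp7a, the copper-exporting ATPase, on the X chromosome (106027276–106124926, plus strand), had 6.85, 6.92 and 5.86 FPKM in the controls, against 3.28, 3.23 and 4.80 FPKM with Al. The groups were apart as deposited and overlapped after scaling, where Al replicate 3 lay above control replicate 3. The log2 fold change was −0.32 (95% CI −0.65 to 0.01, limma adjusted P = 0.0835) and was not called. FPKM as deposited gave −0.80 and TPM gave −1.09, both called, and quantile normalization gave −0.05.

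**Figure D2:**
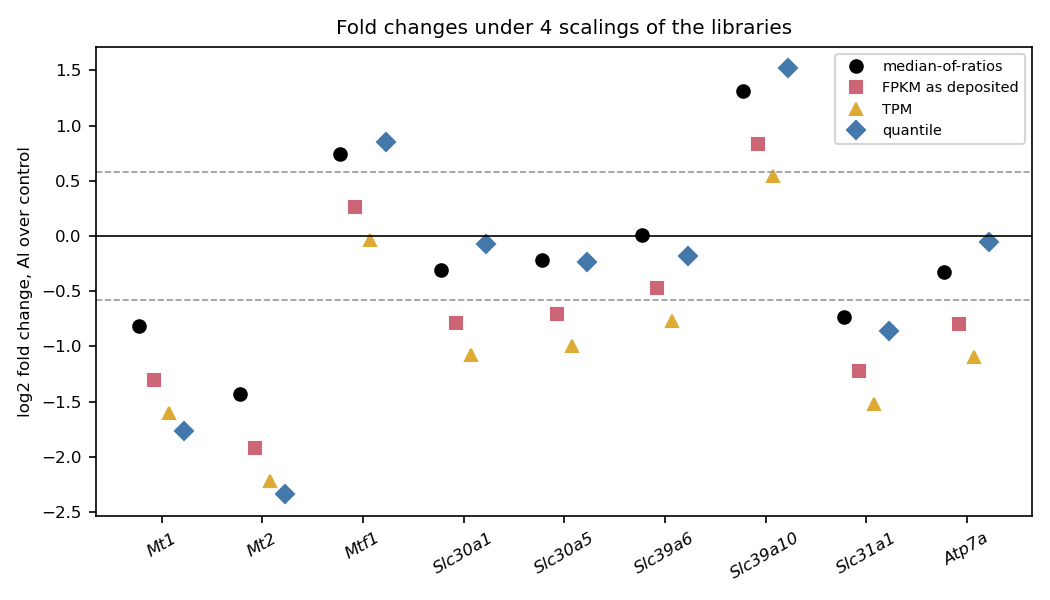
Log2 fold change (Al over control) of each tested member with size factors (black circles), FPKM as deposited (red squares), TPM (yellow triangles) and quantile normalization (blue diamonds). Dashed lines mark the fold threshold of 0.58 in both directions. Mt1, Mt2 and Slc31a1 lie below −0.58 under all 4, and Mtf1 and Slc39a6 are the members with values on both sides of 0.

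**Figure D3:**
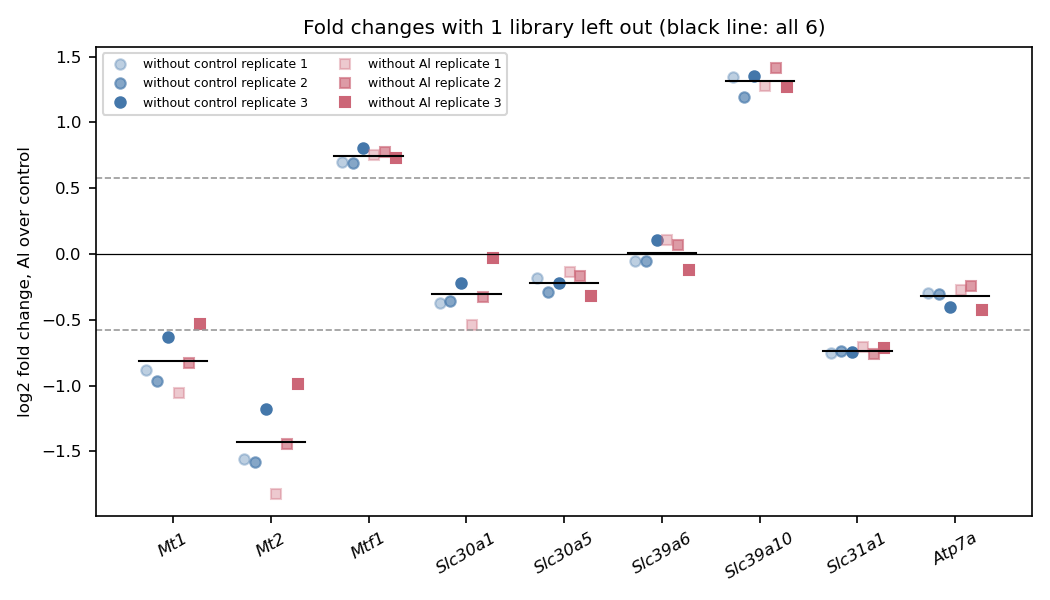
Log2 fold change (Al over control) of each tested member with 1 control library (blue circles) or 1 Al library (red squares) left out, darker for a higher replicate number, and with all 6 libraries (black line). Dashed lines mark 0.58 in both directions. Mt1 crosses the fold threshold to −0.53 without Al replicate 3, and Slc31a1 stays between −0.76 and −0.71.

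Because the scaling moved several calls, ratios of 2 members within the same library were compared. Such a ratio stays the same when all genes of a library are divided by a common factor, as with size factors and TPM. Quantile normalization does not divide by a common factor, so the ratios can depend on it, and they were not computed after it. For these ratios an exact two-sided permutation test of 3 against 3 libraries cannot go below P = 0.1, which is 0.125 after Benjamini-Hochberg adjustment over the 5 ratios, so none of them could pass 0.05. The groups did not overlap, and P was at this smallest value, for 4 of the 5 ratios, all but that of Slc30a1 to Slc30a5. Of single tested genes 68.1% did not overlap between the groups, and the share for ratios of other gene pairs was not computed, so nothing particular to the members is read from this count.

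The ratio of Mt1 to Mt2 was 1.12, 1.03 and 0.935 in the controls, against 1.26, 1.57 and 1.95 with Al. The Al libraries were all higher, a log2 difference of 0.61 (SE 0.20), with Mt2 lower beside Mt1 than in the controls. The ratio of Mt1 to its regulator Mtf1 was 68.5 ± 10.7 in the controls, against 24.1 ± 8.78 with Al, with no overlap (log2 difference −1.56, SE 0.35). Slc39a10 to Slc39a6 was 0.130 ± 0.0157 in the controls, against 0.326 ± 0.0552 with Al, with no overlap (log2 difference 1.31, SE 0.17).

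For copper, the ratio of importer to exporter, Slc31a1 to Atp7a, was 4.28 ± 0.356 in the controls, against 3.24 ± 0.515 with Al (log2 difference −0.42, SE 0.15). All 3 Al libraries were below all control libraries. Slc30a1 to Slc30a5 was 0.420 ± 0.0581 and 0.422 ± 0.189 (log2 difference −0.08, SE 0.42, exact permutation P = 0.9). The Al libraries ranged from 0.229 to 0.607 for this ratio and spanned the control range.

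**Figure D4:**
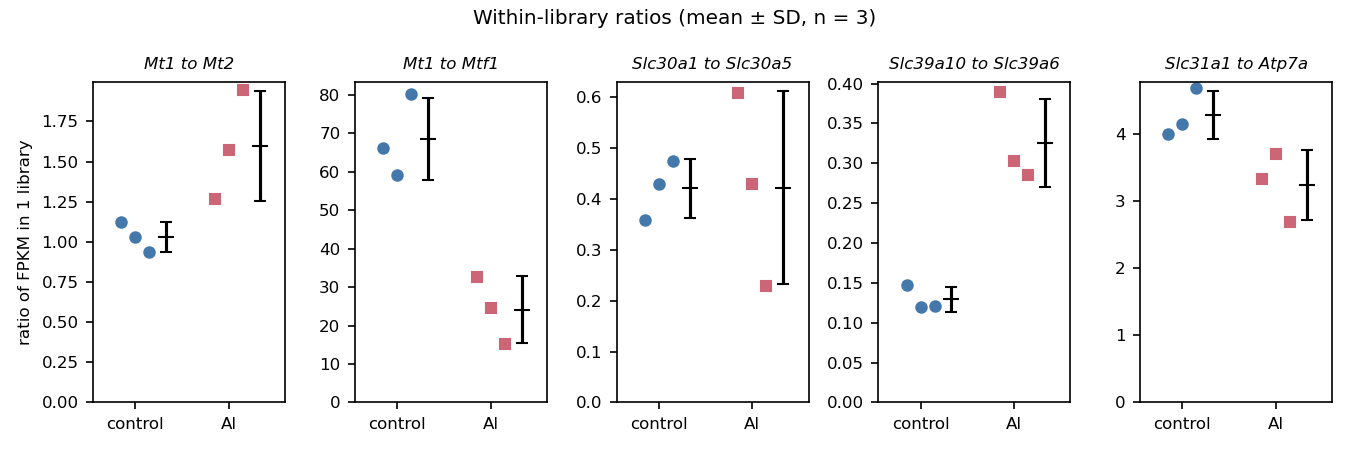
Ratio of the FPKM of 2 members within each library (y axes from 0), for control (blue circles) and Al libraries (red squares), with the mean ± SD (n = 3) in black. The groups are apart for 4 of the 5 ratios (68.1% of single tested genes did not overlap), and for Slc30a1 to Slc30a5 the Al libraries lie on both sides of the control libraries.

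The rest of the zinc and copper machinery was read from lists of 43 other genes, of which 31 were tested. Of these, 8 were higher and 9 lower in the Al group and 14 were not called, with a median log2 fold change of −0.06, beside 50.6% called, 26.2% higher and 24.4% lower among all tested genes and their median of 0.03. The pooled share called was again near that of all genes. With size factors the same shares stand beside the counts of the separate lists, which differed from each other. In the copper list 3 of 14 tested genes were not called, against 3 of 4 other SLC30 genes and 7 of 9 other SLC39 genes. Of all 31 genes, 4 were higher and 15 lower with FPKM as deposited, beside 14.0% and 42.0% of all tested genes. With TPM 3 of the 31 were higher and 18 lower, beside 9.31% and 53.1%. Under FPKM as deposited and TPM the splits were near those of all genes. After quantile normalization 5 of the 31 were higher and 10 lower, with a median of −0.18, beside 22.2% and 24.2% of all tested genes. That split lay further from that of all genes. Of all 10 genes of the SLC30 family, members included, 6 were tested, and 1 was called with size factors. That gene was Slc30a9 (ZnT9), a mitochondrial zinc exporter, at 22.1, 23.1 and 26.0 FPKM in the controls, against 4.60, 4.58 and 7.79 FPKM with Al, 3.05-fold lower after scaling (limma adjusted P = 6.53e-05). The family count turned on the scaling. With FPKM as deposited Slc30a1, Slc30a5 and Slc30a7 were called lower too, and with TPM also Slc30a4. After quantile normalization Slc30a9 alone was called. The shares of all tested genes given above for each scaling stand beside these calls.

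Of the 14 genes of the SLC39 family, 11 were tested, and with size factors 2 were higher and 1 was lower. The lower was Slc39a3 (ZIP3), a plasma membrane zinc importer, at 17.4, 16.8 and 16.3 FPKM in the controls, against 5.03, 6.21 and 7.15 FPKM with Al (log2 fold change −0.97, limma adjusted P = 0.000139). Beside Slc39a10, the gene called higher was Slc39a14 (ZIP14), which carries zinc, manganese and iron. Its log2 fold change was 0.60 (SE 0.14, limma adjusted P = 0.00604), but 0.12 with FPKM as deposited and −0.17 with TPM, neither called. The split of the family turned with the scaling. With FPKM as deposited Slc39a10 was higher and Slc39a3, Slc39a8, Slc39a9 and Slc39a13 were lower, beside 14.0% and 42.0% of all tested genes. With TPM no gene of the family was higher, and Slc39a6, Slc39a7 and Slc39a11 were lower too, beside 9.31% and 53.1%. Quantile normalization gave the same calls as size factors.

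Among 19 other genes of copper handling, 14 were tested, 6 were higher and 5 were lower, with a median log2 fold change of 0.34. The sign of this median turned with the scaling. With FPKM as deposited it was −0.15 (3 higher, 6 lower), where the median of all tested genes was −0.43 and 14.0% of them were higher and 42.0% lower. With TPM it was −0.45 (2 higher, 6 lower), where that of all genes was −0.72 with 9.31% higher and 53.1% lower. After quantile normalization it was −0.04 (3 higher, 6 lower), where that of all genes was −0.03 with 22.2% higher and 24.2% lower. The median of the copper list was 0.17 without Al replicate 1 and 0.56 without Al replicate 3. Atox1, the chaperone that hands copper to ATP7A, had 109, 106 and 107 FPKM in the controls, against 314, 288 and 163 FPKM with Al, a log2 fold change of 1.68 (SE 0.27, limma adjusted P = 0.000764). Atox1 was called higher under every scaling. Cox11 and Sco1, which deliver copper to cytochrome c oxidase in mitochondria, had log2 fold changes of 1.42 (SE 0.093, limma adjusted P = 1.17e-05) and 1.24 (SE 0.16, limma adjusted P = 0.000209), and Sco1 was at 0.46 and not called with TPM. Steap2, a metalloreductase that reduces copper and iron before uptake, had 12.6, 12.2 and 10.8 FPKM in the controls, against 1.37, 1.26 and 1.12 FPKM with Al, 6.40-fold lower after scaling (limma adjusted P = 8.11e-06).

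Of 4 other genes known as MTF1 targets, 1 was higher, 2 were lower and 1 was not called. Slc40a1, the iron exporter ferroportin, had 10.3, 10.3 and 8.80 FPKM in the controls, against 1.84, 0.720 and 2.28 FPKM with Al, a log2 fold change of −2.20 (SE 0.33, limma adjusted P = 0.000508). Gclc, a subunit of the enzyme that limits glutathione synthesis, was lower with a log2 fold change of −0.88 (SE 0.19, limma adjusted P = 0.00312). Sepw1, the older symbol of the selenoprotein gene Selenow, was higher with a log2 fold change of 1.39 (SE 0.28, limma adjusted P = 0.00239). Pgf, a growth factor of the VEGF family, was under 1 FPKM in all libraries and was not called (log2 fold change −0.35, 95% CI −1.02 to 0.33), although FPKM as deposited gave −0.74 and TPM gave −0.99, both called.

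**Figure D5:**
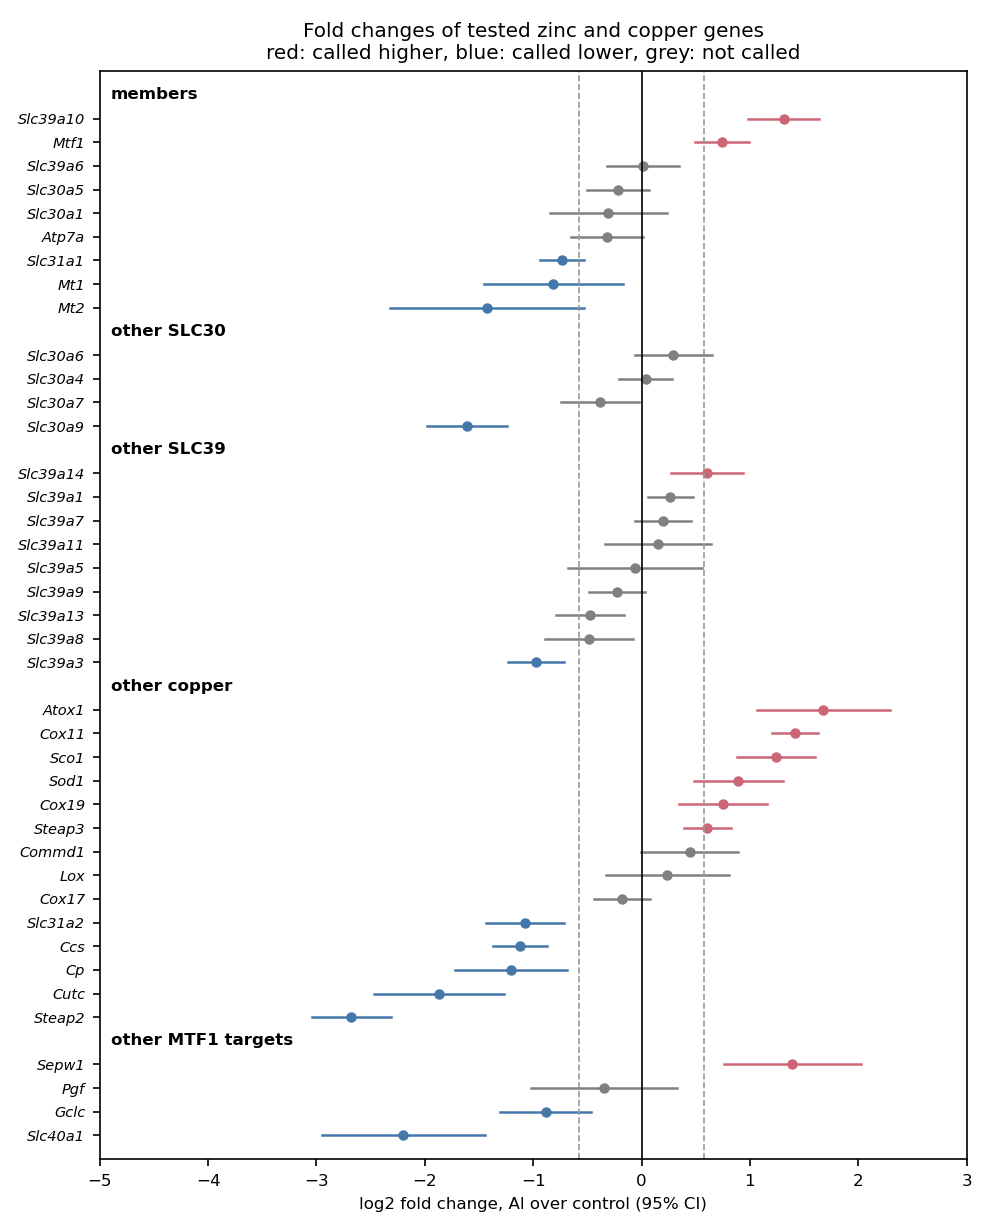
Log2 fold change (Al over control, x axis) with its 95% CI for the 9 tested members and the 31 other tested zinc and copper genes, by list, called higher (red), called lower (blue) or not called (grey), with dashed lines at 0.58 in both directions. Mt2 is the lowest member at −1.43 and Slc39a10 the highest at 1.31, whereas the other lists range from Steap2 at −2.68 to Atox1 at 1.68.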

How the data were processed

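RNA was measured in 6 input libraries of a MeRIP-seq experiment, 3 per group. According to the methods, the authors trimmed reads with Trimmomatic, removed ribosomal reads with SortMeRNA and aligned the rest with HISAT2 to GRCm38/mm10, and the deposited values are FPKM per gene symbol. The submitters' processing notes name fastp, HISAT2, HTSeq and GRCm39 instead, so the build behind the FPKM is uncertain; the table carries no coordinates, and those printed come from GENCODE M21 on GRCm38. All 6 value columns were used. The low values step in units of 1 read, from which read totals and whole reads were recovered for 17688 of the 17688 genes above 0 (within 1e-06 of a whole number); the recovery was tested on simulated data. Read numbers of single genes are known up to a common divisor.

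FPKM was divided by median-of-ratios size factors (over genes detected in every library whose FPKM averaged 1 or more). Tests used log2 of the scaled value plus a pseudocount of 0.1 in limma 3.58.1 (lmFit, eBayes with trend, R 4.3.3) over the 12889 genes whose FPKM averaged 0.1 or more. A fold change on this scale understates changes of low genes. The procedure was also run on simulated data in which few genes changed, equally many up and down. That run cannot show whether the scaling between libraries holds in these data, where many more genes were called. Adjusted P values are Benjamini-Hochberg over these genes. Calls needed an unadjusted P below 0.05 together with a log2 fold change beyond 0.58 in either direction, which are thresholds of the study. The series text and the paper describe the libraries as biological replicates, the paper as independent ones; P values measure the spread between these samples.

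Members and lists were chosen with earlier results of these data known. Named are all members, up to 4 called genes of each other list with the largest absolute log2 fold change and a mean FPKM of at least 1, every other MTF1 target, and the 3 genes nearest to Mt1. Marker lists of astrocytes, microglia and oligodendrocytes were read beside neuronal markers: in the control and Al libraries the summed FPKM of 4 microglial markers was 39.3 to 48.9 and 22.2 to 72.6, nearly all of it Tmem119, and that of 4 oligodendrocyte markers 0.192 to 0.314 and 0.185 to 0.780. Python 3.11.15, numpy 2.4.6, pandas 2.3.3 and scipy 1.17.1 were used. Alternatives covered scaling, pseudocount, filter, trend, replicate block, call rule, voom on recovered reads and each library left out.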

Additional observations from a re-analysis of the deposited data

How the results depend on the processing

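With an absolute log2 fold change over 1 required, 3881 genes, 2 members (Mt2 and Slc39a10) and 11 of the other zinc and copper genes were called in place of 6518, 5 and 17. Among single members, Mtf1 turned to −0.034 and Slc39a6 to −0.77 with TPM. Mt2 kept its call under all 18 alternatives, and Mt1 lost it under 3, as given above for the libraries left out and with the threshold of 1. With 1 library left out, 6159 to 6762 genes, 4 to 5 members and 15 to 18 of the other genes were called, and the log2 difference in the ratio of Slc30a1 to Slc30a5 ranged from −0.40 to 0.29, turning positive without control replicate 3 or Al replicate 3. Of the genes called, 51.8% were higher with size factors, 25.0% with FPKM as deposited and 14.9% with TPM. A pseudocount of 1 gave 5132 called genes and voom on the recovered reads 6553. The cause of these changes was not tested.

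Replicate numbers are shared by the groups. Deviations of same-numbered samples from their group means correlated at −0.08, −0.06 and −0.11 across genes. Samples with different numbers correlated between −0.13 and 0.15. Deviations within a group add up to 0, so these values cannot tell whether same-numbered samples were handled together. With the replicate block, 6475 genes and 5 members were called; no sample pairing is given by the labels. Precision is limited by the 3 libraries per group and, for Mt3, by depth.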
